A study of Mus musculus with 29 samples.

Results

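The genes described here encode the subunits, activators and assembly factors of the proteasome, and their liver mRNA was compared between mice with and without Maf1, a repressor of RNA polymerase III. Members were the genes whose symbol began with Psma, Psmb, Psmc, Psmd, Psme, Psmf or Psmg followed by a digit. The interferon-inducible Psmb8 and Psmb9 and pseudogenes were left out, which gave 45 of the 12992 genes measured. The rule used symbols alone and no measured value, but it was set with earlier results of these data known. The 45 genes held 7 alpha ring subunits, 3 catalytic and 4 other beta ring subunits, 6 ATPases and 3 other subunits of the base, 8 lid subunits, 3 base chaperones, 4 chaperones of the 20S core, the inducible subunit Psmb10, 5 activators (Psme1, Psme2, Psme2b, Psme3 and Psme4) and Psmf1.

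Whole liver RNA was sequenced from 29 male C57BL/6 mice in 3 cohorts, with 1 library per mouse. Mice were 13 to 14 weeks old and were fasted overnight and refed for 4 h before sacrifice. The first cohort held 5 Maf1-/- mice, which lack Maf1 in every tissue, and 7 Ctrl mice on Chow. The second held 4 Maf1hep-/- mice, homozygous for floxed Maf1 and hemizygous for Cre under the albumin promoter, which is active in hepatocytes, and 4 Ctrl mice on Chow. The third held 4 Maf1hep-/- and 5 Ctrl mice on a diet rich in fat (HF), in which lard gave 60% of calories, from 4 to 5 weeks of age. Ctrl mice of the Maf1hep-/- cohorts (hep Ctrl) carried the same floxed alleles without Cre, so they do not control for Cre itself.

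The 26S proteasome degrades proteins that carry chains of ubiquitin. Its 20S core is a barrel of alpha and beta rings, in which Psmb5, Psmb6 and Psmb7 carry the proteolytic sites. The 19S particle caps the barrel: the ATPases of its base (Psmc genes) unfold substrates, Psmd4 binds ubiquitin and Psmd14 of the lid removes it. Under interferon, Psmb8, Psmb9 and Psmb10 take the places of the catalytic subunits, and the activator made of Psme1 and Psme2 rises. Transcription of the constitutive subunits is known to be raised together by Nfe2l1 when proteasome activity falls, through antioxidant response elements in their promoters. Liver cells also rely on the proteasome to degrade Apob, enzymes of sterol synthesis and many signalling proteins.

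Promoter windows from RefSeq (build GRCm38.p6), 300 bases long with 250 bases before the start of transcription and 50 after it, were matched to 38 of the 45 genes. They were searched on both strands for 3 motifs: TGACNNNGC, the core of the antioxidant response element, CCAAT, the NF-Y box, and CCGGAAG, which ETS factors bind. CCGGAAG occurred in 14 of the 38 windows (36.8%), against 9.93% of the windows of 27025 genes. CCAAT occurred in 12 (31.6%), against 41.1%, and TGACNNNGC in 6 (15.8%), against 14%. None of the 3 motifs was found for 14 of the 38 genes. The 4 windows printed here come from genes that were lower in HF-fed than in Chow-fed livers of both genotypes, and they were picked from those genes after their motif matches had been seen, to show each motif. Motif matches are in capitals and do not overlap, and a match is a stretch of letters, not a site shown to be bound.
Psmb5, a catalytic subunit, chr14:54617946-54618245, minus strand, TGACNNNGC: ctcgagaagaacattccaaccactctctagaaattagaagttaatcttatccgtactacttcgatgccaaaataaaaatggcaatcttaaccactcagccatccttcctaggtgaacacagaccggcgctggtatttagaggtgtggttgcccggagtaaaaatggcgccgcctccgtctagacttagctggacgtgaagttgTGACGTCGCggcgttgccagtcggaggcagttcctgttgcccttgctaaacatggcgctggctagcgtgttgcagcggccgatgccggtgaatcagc
Psmb6, a catalytic subunit, chr11:70525107-70525406, plus strand, TGACNNNGC: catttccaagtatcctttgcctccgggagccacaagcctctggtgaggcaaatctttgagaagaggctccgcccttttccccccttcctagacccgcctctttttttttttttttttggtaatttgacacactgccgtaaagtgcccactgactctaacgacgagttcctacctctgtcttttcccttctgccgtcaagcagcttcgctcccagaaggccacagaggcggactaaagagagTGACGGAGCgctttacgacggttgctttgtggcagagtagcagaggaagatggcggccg
Psmc1, an ATPase of the base, chr12:100109952-100110251, plus strand, CCAAT and, read on the other strand, CCGGAAG: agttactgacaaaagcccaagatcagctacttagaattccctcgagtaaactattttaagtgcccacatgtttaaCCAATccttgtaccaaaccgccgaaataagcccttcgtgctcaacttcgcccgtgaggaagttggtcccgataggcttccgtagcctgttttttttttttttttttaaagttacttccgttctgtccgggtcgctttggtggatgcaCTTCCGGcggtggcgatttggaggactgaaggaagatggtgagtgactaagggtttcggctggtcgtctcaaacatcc
Psma3, an alpha subunit, chr12:70974373-70974672, plus strand, CCAAT on either strand: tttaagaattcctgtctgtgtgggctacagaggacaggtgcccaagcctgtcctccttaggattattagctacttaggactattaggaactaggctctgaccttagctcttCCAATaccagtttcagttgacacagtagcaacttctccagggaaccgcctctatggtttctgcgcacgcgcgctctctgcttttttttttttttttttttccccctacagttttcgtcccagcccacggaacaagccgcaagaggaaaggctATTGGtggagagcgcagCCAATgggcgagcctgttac

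The 20 Chow libraries held 43564164 to 75682301 estimated counts and the 9 HF libraries 25544816 to 32319706. Maf1 lay at 4.93 to 10.8 CPM (counts scaled to a common library size) in whole-body Ctrl and 0.0771 to 1.09 in Maf1-/- livers. In the hep cohorts it lay at 14.9 to 18.8 in Ctrl and 2.83 to 4.21 in Maf1hep-/- livers on Chow, and at 12.6 to 18.9 and 1.38 to 1.81 on HF. On the first principal component of the whole-body cohort, Ctrl mouse 2 lay among the Maf1-/- mice and Maf1-/- mouse 2 among the Ctrl mice. Maf1 matched the labels of both, so results of that cohort are given with and without them. Leaving them out is a choice made on expression, so calls without them are not an independent test. Hepatocyte markers (Alb, Apoa1, Ttr, Serpina1c, Cyp2e1 and Cps1) summed to 66065 to 117425 CPM over all 29 livers. A change in bulk liver can come from fewer cells of a type or from less RNA per cell, which cannot be told apart. In the tests, a gene was called when its Benjamini-Hochberg adjusted p in edgeR's quasi-likelihood test was under 0.05 over all genes tested, and log2 fold changes are given ± SE.

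Levels per length (CPM per kb of 1 principal GENCODE transcript a gene) put the core and base subunits well above the assembly factors in hep Ctrl livers on Chow. The highest gene was the catalytic subunit Psmb6, at 162.9 ± 18.2 CPM per kb (SD, n = 4), against 89.4 for Psmb7 and 50.9 ± 6.69 for Psmb5. The alpha ring ranged from 22.2 ± 1.96 for Psma2 to 121.9 ± 9.03 for Psma4, and the other beta subunits from 56.4 for Psmb1 to 96.4 for Psmb2. The role groups thus overlapped widely in level. The ATPases lay between 44.2 (Psmc5) and 87.3 (Psmc3), the other base subunits between 60.1 (Psmd1) and 98.2 (Psmd4), and the lid between 21.6 (Psmd13) and 89.6 (Psmd8).

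The chaperones, which guide assembly and leave the finished particle, were lower. Psmd9 reached 10.4 and Psmd10 5.59 CPM per kb among the base chaperones, and Psmg1 reached 15.6 and Psmg4 4.59 among the core chaperones. Psmf1, an inhibitor of the core in vitro, lay at 4.64. Among the activators, Psme1 lay at 59.6, Psme3, a nuclear activator, at 19.4, and Psme2b, a near-identical copy of Psme2 with which it can share reads, at 0.776, so the values of Psme2 and Psme2b are uncertain. The inducible Psmb10 lay at 11.9. Dividing by the summed length of all exons in place of the transcript changed which gene was lowest or highest in most role groups, so the order within a group depends on the length used.

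Do hepatocytes without Maf1 hold less or more proteasome mRNA on Chow? Nearly every member was slightly lower in Maf1hep-/- than in hep Ctrl livers, and none was called. Of 44 members tested (Psme2b fell below 1 CPM in every mouse), 39 had a lower mean, with a median log2 fold change of −0.13 and a range from −0.29 to 0.16. Over all 12570 genes tested, 53.1% were lower and the median was −0.011. The count called was 0 of 44, against 2 genes in all (0.0159%). At an unadjusted p under 0.05 there were 3 members, all lower, against 2.39% of all genes (0.907% lower), and DESeq2 gave 0 called and 5 at that level.

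The lower values covered the rings, the base and the lid. All 31 constitutive 26S subunits among the members were lower, with a median of −0.15. These were the 14 of the core, the 6 ATPases, Psmd1, Psmd2, Psmd4 and the 8 of the lid. The ubiquitin receptor Adrm1 and the small lid subunit Shfm1 are also part of the 26S particle, but the symbol rule left them out. This union of role groups was put together after the values had been seen and gets no test, and its genes vary together across mice, so 31 of 31 does not stand for 31 independent observations. By role, the median was −0.24 for the catalytic subunits, −0.14 for the alpha ring, −0.15 for the ATPases and for the other beta subunits, and −0.10 for the lid and for the other base subunits. The base chaperones had a median of −0.12 and the core chaperones of −0.09. The members with a higher mean were Psmb10 (0.09), Psme1 (0.05), Psme2 (0.02), Psme4 (0.02) and Psmf1 (0.16 ± 0.07).

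**Figure D1:**
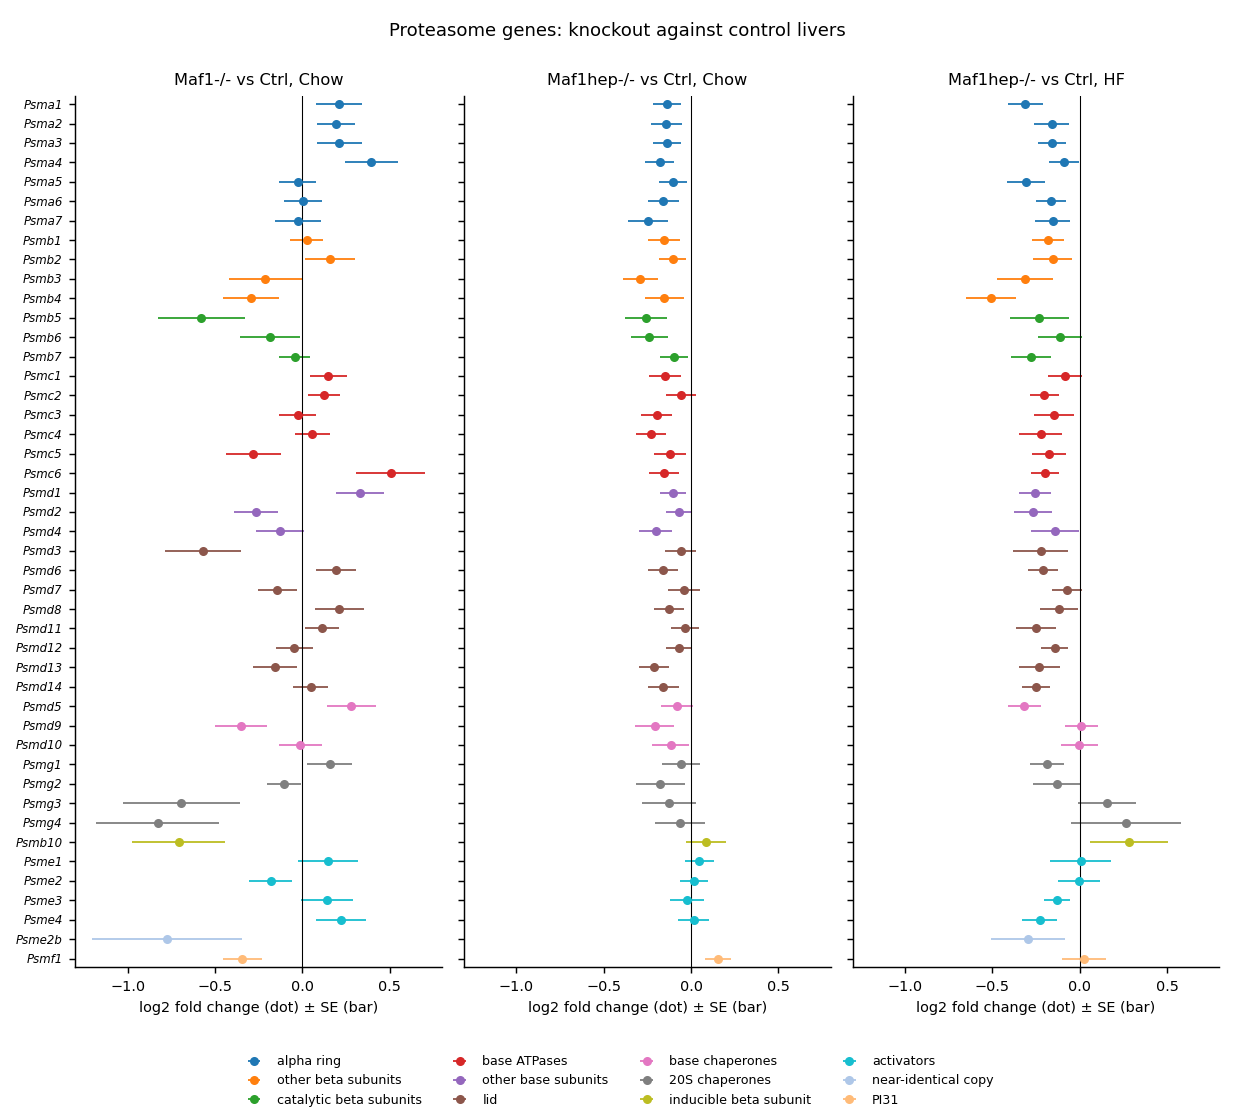
Log2 fold change of each member (dots, coloured by role, with bars of 1 SE) for Maf1-/- against Ctrl on Chow, Maf1hep-/- against Ctrl on Chow and Maf1hep-/- against Ctrl on HF. In both Maf1hep-/- panels the 31 constitutive subunits lie left of 0, with medians of −0.15 on Chow and −0.20 on HF, while the whole-body panel has 24 of 45 members below 0.

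The members with the smallest p on Chow belonged to 3 different subcomplexes. Psmb3, a beta subunit without a proteolytic site encoded at chr11:97703399-97713500 (GRCm38), lay at 65.0, 66.9, 77.1 and 62.3 CPM in hep Ctrl and at 62.2, 47.8, 53.2 and 59.1 in Maf1hep-/- livers. Every knockout was below every Ctrl mouse, by a narrow margin between the closest pair, as in 0.756% of all genes. Its log2 fold change was −0.29 ± 0.10 (adjusted p = 0.997, edgeR). The ATPase Psmc4 lay at 119.9, 125, 139 and 114 in Ctrl and at 111, 97.5, 102 and 115 in knockouts, where 1 knockout passed the lowest Ctrl (−0.23 ± 0.09, adjusted p = 0.997, edgeR). The lid subunit Psmd13 lay at 44.2, 41.0, 46.4 and 40.6 against 41.7, 33.8, 35.7 and 37.8 CPM (−0.21 ± 0.09, adjusted p = 0.997, edgeR). Again 1 knockout lay among the Ctrl mice. Psmc3, another ATPase, lay at 141, 143, 158 and 129.6 against 132, 116, 116 and 135 CPM, with 2 knockouts above the lowest Ctrl (−0.20 ± 0.09, adjusted p = 0.997, edgeR).

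**Figure D2:**
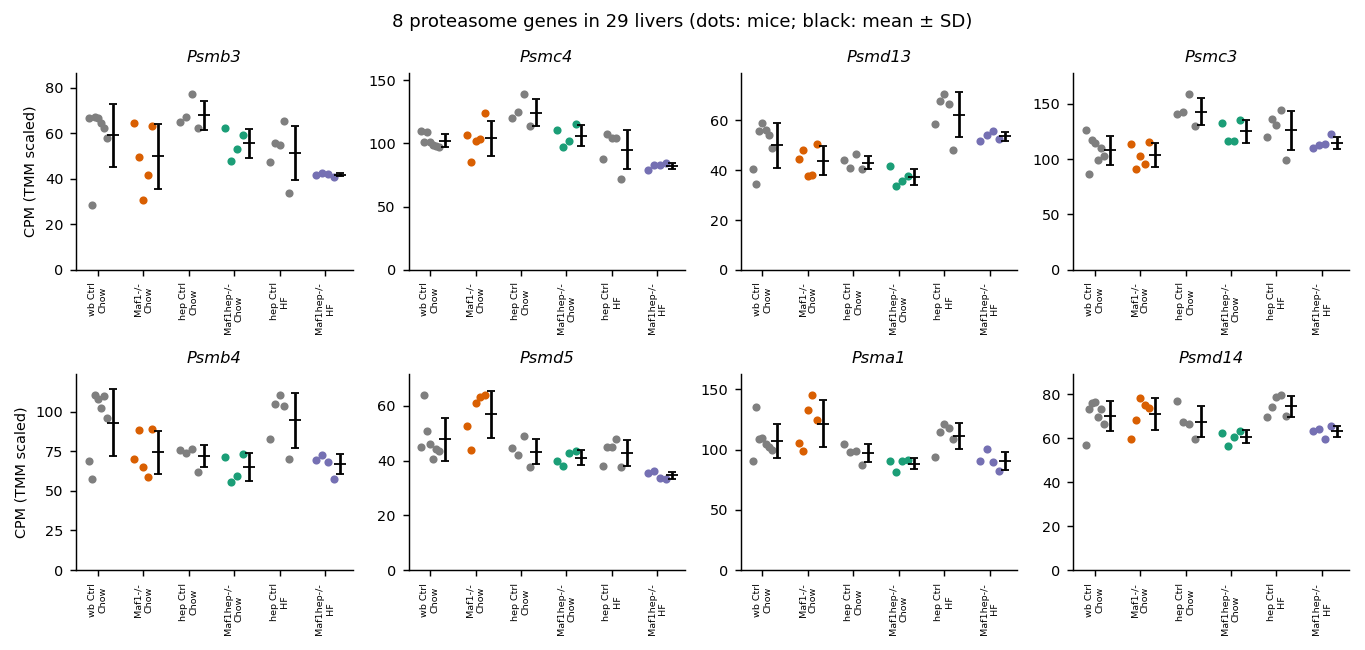
CPM per mouse in the 6 groups (29 livers; wb Ctrl is the Ctrl of the whole-body cohort) for Psmb3, Psmc4, Psmd13, Psmc3, Psmb4, Psmd5, Psma1 and Psmd14, the members with the smallest p in the Maf1hep-/- comparisons, with the group mean and SD. Knockout points sit low within or just under the Ctrl range in both hep cohorts, and on HF the 4 Psmd14 values of 59.7 to 65.7 lie below all Ctrl values.

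The catalytic subunits showed the same order of means with more overlap. Psmb5, the chymotrypsin-like subunit, lay at 44.9, 44.0, 54.2 and 40.0 CPM in Ctrl and at 40.2, 34.0, 34.6 and 44.4 in knockouts (−0.26 ± 0.12). Psmb6, the caspase-like subunit, lay at 133, 129, 147 and 111 against 124, 102, 97.8 and 118 (−0.24 ± 0.11). In each, 2 knockouts lay under the whole Ctrl range and 2 within it. Psmb7, the trypsin-like subunit, lay at 112, 104, 104 and 95.6 against 104, 92.7, 90.003 and 102 CPM (−0.10 ± 0.08). The deubiquitinase Psmd14 lay at 76.8, 67.3, 66.5 and 59.9 against 62.3, 56.4, 60.9 and 63.2 CPM (−0.16 ± 0.09), with 3 knockouts above the lowest Ctrl. The ubiquitin receptor Psmd4 lay at 135, 128, 142 and 119 against 119, 103, 105 and 129 CPM (−0.20 ± 0.09), with 2 knockouts below all Ctrl values.

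These counts moved with single mice. Without hep Ctrl mouse 4, 15 members had an unadjusted p under 0.05, against 6.06% of all genes, and without hep Ctrl mouse 3 or Maf1hep-/- mouse 2 none had. Leaving out any other mouse gave 1 to 7, and 29 to 31 constitutive subunits were lower in all of these fits. Hep Ctrl mouse 1 stood apart on the first principal component of this cohort (−44.0, against −10.7 to 18.8 for the other mice). Without it, 2 members had an unadjusted p under 0.05, against 4.7% of all genes, and the median was −0.098. Scaling by library totals in place of TMM left 27 of 31 constitutive subunits lower, with a median of −0.064 over the members and 0.050 over all genes. Hepatocyte markers summed to 80297 to 82952 CPM in Ctrl and 69572 to 90908 in knockouts, which overlap. Erythroid markers had a higher mean in knockouts for 5 of 5 (median 0.40) and stellate markers for 5 of 6 (0.08). Sinusoidal endothelial markers did for 0 of 6 (−0.07) and cholangiocyte markers for 0 of 4 (−0.38). In these 4 lists, 0 were called and 0 had an unadjusted p under 0.05 in edgeR. The part of any of these in the result was not tested on Chow.

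Does the difference recur on HF, in mice that share no animal with the Chow cohort? Again 39 members had a lower mean in Maf1hep-/- livers, now of 45 tested, with a median log2 fold change of −0.16 against −0.003 over all 12378 genes, of which 50.8% were lower. All 31 constitutive subunits were lower, with a median of −0.20. None of the 45 was called, against 0.0162% of all genes. At an unadjusted p under 0.05 there were 12 members, all lower, against 6.04% of all genes (2.74% lower), and DESeq2 gave 0 called and 15 at that level. By role the median was −0.26 for the other base subunits, −0.25 for the other beta subunits, −0.23 for the catalytic subunits, −0.22 for the lid, −0.19 for the ATPases and −0.16 for the alpha ring. The chaperones had medians near 0, of −0.002 for the base and 0.013 for the core chaperones. The members with a higher mean were Psmb10, Psmg3, Psmg4, Psmf1, Psmd9 and Psme1.

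The largest difference was in Psmb4, a beta subunit without a proteolytic site whose gene lies at chr3:94884093-94886961 (GRCm38). It lay at 82.7, 105, 111, 104 and 70.1 CPM in Ctrl and at 69.5, 72.6, 68.0 and 57.6 in Maf1hep-/- livers (−0.51 ± 0.14, adjusted p = 0.595, edgeR). A single knockout passed the lowest Ctrl mouse, and 4 of 5 Ctrl mice lay above every knockout. The base chaperone Psmd5 lay at 38.1, 45.0, 45.1, 48.0 and 37.6 against 35.3, 36.2, 33.6 and 33.4 (−0.32 ± 0.09, adjusted p = 0.638, edgeR). Its groups did not overlap. The alpha subunit Psma1 lay at 93.8, 115, 122, 118 and 109 against 90.2, 101, 89.3 and 82.2 (−0.31 ± 0.10, adjusted p = 0.675), with 1 knockout inside the Ctrl range. Psmd14 lay at 69.6, 74.4, 78.9, 79.95 and 70.2 against 63.3, 64.4, 59.7 and 65.7 (−0.25 ± 0.08, adjusted p = 0.699), with no overlap. Lower values without overlap were seen in 5 members (Psmc2, Psmd1, Psmd12, Psmd14 and Psmd5), against 0.856% of all genes.

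Among the catalytic subunits on HF, Psmb7 lay at 111, 112, 120.3, 111 and 89.2 CPM in Ctrl and at 101, 83.2, 94.4 and 82.7 in knockouts (−0.28 ± 0.11). Psmb5 lay at 23.5, 26.4, 24.3, 27.8 and 14.1 against 18.7, 19.9, 20.5 and 20.9, and Psmb6 at 88.2, 101, 97.8, 109 and 70.6 against 80.04, 85.3, 88.8 and 94.1. In all 3, the lowest Ctrl value came from mouse 5, and for Psmb5 the other 4 Ctrl mice lay above every knockout. The log2 fold changes were −0.23 ± 0.17 for Psmb5 and −0.11 ± 0.13 for Psmb6. Psmd4 lay at 113, 119, 119, 133 and 84.9 against 104, 98.2, 94.0 and 121 CPM (−0.14 ± 0.14), with overlap.

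Hep Ctrl mouse 5 had the lowest mean over the constitutive subunits in its group and stood apart on the first principal component of the HF cohort, as did Maf1hep-/- mouse 2. Without mouse 5, 26 members had an unadjusted p under 0.05, against 9.64% of all genes, and the median was −0.23. Leaving out any other mouse gave 6 to 12. With both of these mice out, 21 had, against 11.5% of all genes, with a median of −0.21. Same-numbered mice all correlated above 0.1 in this cohort after removing group means, the lowest pair at 0.102. With the mouse number as a block, 28 members, all lower, had an unadjusted p under 0.05 (13.5% of all genes). In that fit 0 of 45 were called (0.364% of all genes), and the median was −0.23. Only Ctrl held a mouse 5, so the block took that mouse out of the genotype comparison. The block fit shares this omission with the fit without mouse 5 and is not separate support. The paper describes its data as unpaired. Hepatocyte markers summed to 66065 to 78411 CPM in HF-fed Ctrl and to 86083 to 91263 in HF-fed knockouts, without overlap. Erythroid markers had a higher mean in knockouts for 5 of 5 (54.9 to 95.2 against 58.1 to 151 CPM in sum, median log2 fold change 1.49) and stellate markers for 5 of 6 (289.6 to 396 against 333 to 483, median 0.31), with 0 called and 3 and 2 at an unadjusted p under 0.05 in edgeR. The part of any of these in the result was not tested.

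Since the 2 hep cohorts share no mouse, the sign of each gene can be set side by side. A lower mean in the knockouts of both cohorts was found for 36 of 44 members (81.8%), against 3155 of 11978 genes tested in both (26.3%). It was found for 31 of 31 constitutive subunits as well, a union without Adrm1 and Shfm1 that was put together after the values had been seen. The genes vary together across mice, so neither count stands for independent observations, and neither was tested. The mean log2 CPM over the 31 genes gave the same picture per mouse. On Chow it was 6.58, 6.495, 6.58 and 6.37 in Ctrl and 6.44, 6.26, 6.30 and 6.44 in Maf1hep-/- livers, where the lowest Ctrl mouse lay below 2 knockouts. On HF it was 6.32, 6.47, 6.49, 6.51 and 6.16 in Ctrl and 6.22, 6.23, 6.16 and 6.21 in knockouts. There 4 of 5 Ctrl mice lay above all knockouts, and the knockouts spread least of the 6 groups (SD 0.028, against 0.15 in their Ctrl).

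**Figure D3:**
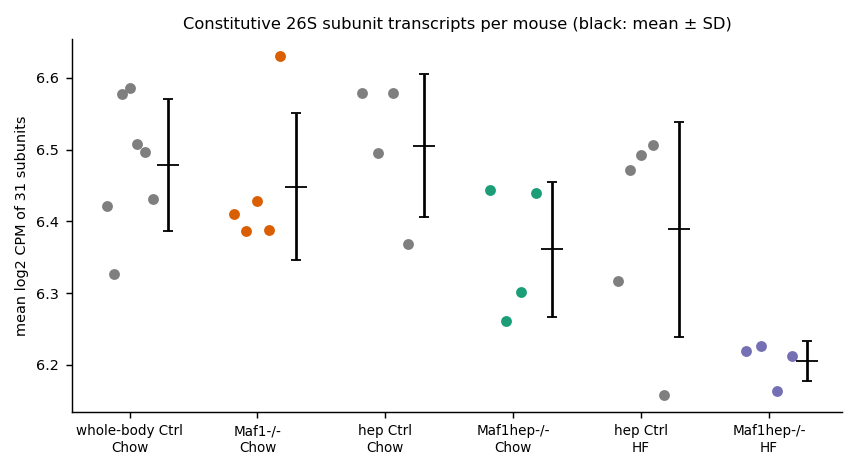
Mean log2 CPM over the 31 constitutive 26S subunits among the members in each liver (points) of the 6 groups, with the group mean and SD in black. Group means are 6.51 and 6.36 in hep Ctrl and Maf1hep-/- on Chow and 6.39 and 6.21 on HF, while whole-body Ctrl and Maf1-/- overlap at 6.48 and 6.45.

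The constitutive subunits moved together from mouse to mouse. The median correlation between 2 of them, after removing group means, was 0.700 in the hep Chow cohort and 0.634 in the HF cohort, and 95.1% and 91.2% of pairs were above 0. These are descriptions over 8 and 9 mice, and all genes of a mouse share its library and depth. In the whole-body cohort the median was 0.200.

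Did the Maf1 effect on these genes differ with diet? No member was called for the interaction of genotype with diet in the hep line, which uses the same mice as above, and no gene at all was (0%, with 4.62% at an unadjusted p under 0.05). None of the 45 members reached an unadjusted p of 0.05, and DESeq2 called 0 members and 11 genes. The smallest p were those of Psme4, an activator known for its role in sperm (−0.24 ± 0.12), Psmb4 (−0.35 ± 0.19) and Psmd5 (−0.23 ± 0.13), with adjusted p of 0.998 in edgeR. Psme4 lay at 239, 234, 199.9 and 224 CPM in Ctrl and 208, 232, 248 and 219.8 in knockouts on Chow, which overlap. On HF it lay at 270.2, 285, 287, 257 and 259 against 260.5, 244, 222 and 208, where 1 knockout lay within the Ctrl range.

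In the whole-body knockout the constitutive subunits split instead of moving one way. Of 45 members tested, 24 were lower in Maf1-/- livers, with a median of −0.03 against 0.003 over all 12796 genes, and 15 of the 31 constitutive subunits were lower. None was called, against 0.0156% of all genes. At an unadjusted p under 0.05 there were 9 members (6 lower and 3 higher) against 26.3% of all genes (15.4% lower), and DESeq2 gave 0 called and 11 at that level. No member's groups were free of overlap, against 0.211% of all genes lower and 0.328% higher without overlap.

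The inhibitor Psmf1 had the smallest p. It lay at 15.5 to 24.2 CPM with a median of 23.2 in Ctrl and at 18.9, 19.1, 15.2, 15.8 and 15.1 in Maf1-/- livers (−0.34 ± 0.11, adjusted p = 0.152, edgeR). The lowest Ctrl value was that of mouse 2, and all knockouts lay below the other 6 Ctrl mice. Psmb10 lay at 4.7 to 19.3 with a median of 13.2 against 9.67, 11.0, 5.17, 6.8 and 6.74 (−0.71 ± 0.27, adjusted p = 0.157, edgeR). The lid subunit Psmd3 lay at 29.4 to 82.8 with a median of 72.6 against 52.9, 55.9, 36.2, 30.6 and 45.6 (−0.57 ± 0.22, adjusted p = 0.157). In both genes Ctrl mouse 2 was again the lowest of its group. The alpha subunit Psma4 went the other way, at 115 to 166 with a median of 123 against 142, 119.7, 184, 181 and 209 (0.39 ± 0.15, adjusted p = 0.158, edgeR). Here Ctrl mouse 2 was the highest Ctrl and Maf1-/- mouse 2 the lowest knockout.

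All 3 catalytic subunits had a lower mean in Maf1-/- livers, and none was called. Psmb5 lay at 19.7 to 65.6 CPM with a median of 56.5 in Ctrl and at 36.3, 41.1, 24.6, 22.8 and 42.5 in Maf1-/- livers (−0.58 ± 0.25). Psmb6 lay at 58.0 to 123 with a median of 98.6 against 105, 79.3, 67.2, 61.6 and 101, and Psmb7 at 104 to 132 with a median of 119 against 97.6, 108, 117, 119.8 and 118. The log2 fold changes were −0.18 ± 0.17 for Psmb6 and −0.04 ± 0.09 for Psmb7, and all 3 overlapped between genotypes. Psmd14 lay at 57.0 to 76.6 with a median of 73.3 against 59.8, 68.5, 78.5, 75.1 and 73.9 (0.05). Psmd4 lay at 66.2 to 121 with a median of 113 against 103, 91.7, 83.8, 78.0 and 117 (−0.13).

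Without both mice 2, 27 of the 45 members were called, 14 higher and 13 lower, against 47.6% of all 12714 genes (23.2% higher and 24.4% lower). The share of members called was 60.0%. Leaving out mice whose expression lay with the other genotype itself sets the groups further apart. The calls and p of this fit describe the remaining mice and depend on that choice. Of the members called higher, those with the smallest p were the ATPase Psmc6 (0.79 ± 0.11, adjusted p = 0.0005), Psma4 (0.59 ± 0.10, adjusted p = 0.00112), Psmd5 (0.47), the scaffold subunit Psmd1 (0.51) and Psme4 (0.42 ± 0.08). Of those called lower, they were the core chaperone Psmg4 (−1.25 ± 0.21, adjusted p = 0.000932), Psmb10 (−0.99 ± 0.17, adjusted p = 0.00115), Psmd3 (−0.78 ± 0.15), Psmf1 (−0.44 ± 0.09) and the ATPase Psmc5 (−0.48 ± 0.10), and the catalytic Psmb5 was called as well (−0.79 ± 0.18), all by edgeR. With Ctrl mouse 2 alone left out, 16 members were called, against 35.4% of all genes. With Maf1-/- mouse 2 alone left out 0 were called in edgeR, with 23 at an unadjusted p under 0.05, against 37.3% of all genes. All 4 alpha subunits called (Psma1, Psma2, Psma3 and Psma4) were higher and both constitutive beta subunits called (Psmb4 and Psmb5) lower. Called ATPases went both ways (Psmc1 and Psmc6 higher, Psmc5 lower), as did called lid subunits (Psmd6, Psmd8 and Psmd11 higher, Psmd3 and Psmd7 lower) and the partners Psme1 (0.37) and Psme2 (−0.27). Psmc6 lay at 99.3 to 180.1 CPM with a median of 109 in Ctrl and at 151, 103, 199.9, 193 and 192 in Maf1-/- livers, and mouse 2 was the highest Ctrl and the lowest knockout. In the same fit stellate markers had 4 of 6 called (5 of 6 higher, median 0.34, with sums of 287 to 454 CPM in all 7 Ctrl and 329.8 to 687 in all 5 Maf1-/- livers), interferon response genes 7 of 10, hepatocyte markers 2 of 6 and cholangiocyte markers 2 of 4. Their part in the members' values was not tested.

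The direction varied with base composition. Members called higher without both mice 2 had a median transcript GC content of 46.0%, and those called lower 52.7%, against 44.0% and 56.0% for all genes called higher and lower. Across members, log2 fold change and GC content correlated at −0.64 with all 12 mice and −0.61 without mice 2, and across all genes at −0.62 and −0.63, where genes are not independent replicates. With an offset for GC content in the fit of the 12 mice, Psmd3 moved from −0.57 to −0.10, Psmb10 from −0.71 to −0.34 and Psma4 from 0.39 to 0.23, while Psmf1 went from −0.34 to −0.39. In that fit 0 members were called, with 5 at an unadjusted p under 0.05, against 17.5% of all genes. In the hep cohorts the correlation across members was −0.03 on Chow and 0.27 on HF.

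**Figure D4:**
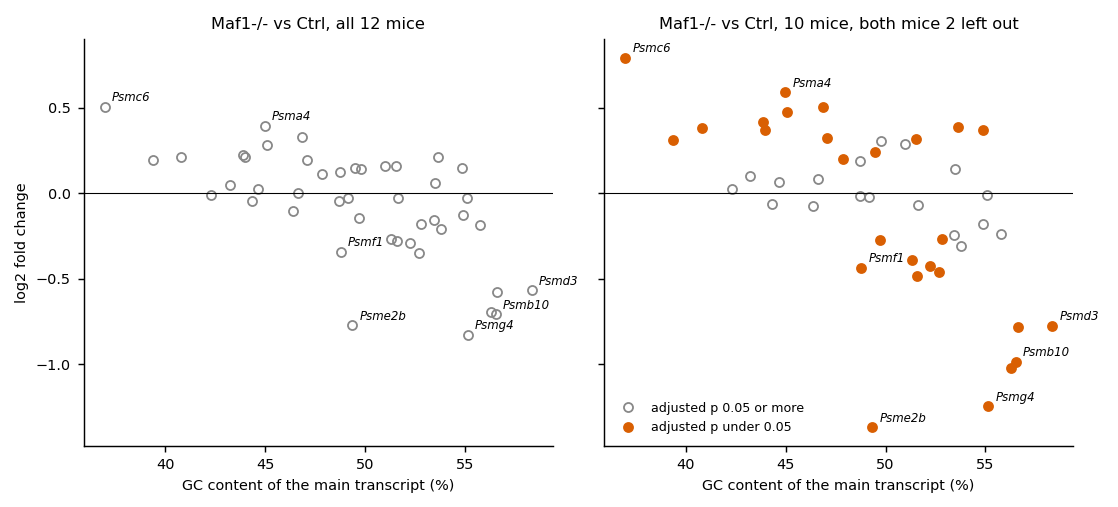
Log2 fold change of Maf1-/- against Ctrl (vertical) against transcript GC content in percent (horizontal) for the members, with all 12 mice on the left and without both mice 2 on the right, where orange marks members with an adjusted p under 0.05. Points slope down with GC content, with r of −0.64 and −0.61, and overlap widely: on the left, members above 0 span 37.0% to 54.9% GC and those below 0 span 42.3% to 58.3%.

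The whole-body and hepatocyte effects were compared in 1 fit of the 20 Chow-fed mice used above. No member was called (0% of genes), 8 had an unadjusted p under 0.05 against 12.3% of all genes, and DESeq2 called 0 members and gave 11 at that level. The smallest p were those of Psmf1 (−0.52 ± 0.16), Psma4 (0.55 ± 0.18) and Psmc6 (0.64 ± 0.24), with an adjusted p of 0.398 in edgeR. Psmf1 had a lower mean in Maf1-/- livers but lay at 16.8, 18.6, 18.4 and 16.98 CPM in hep Ctrl and 19.7, 19.3, 19.0 and 20.8 in Maf1hep-/- livers on Chow, the latter higher without overlap, as in 0.692% of all genes. With both mice 2 out, 20 members were called (12 higher and 8 lower), against 28.6% of all genes.

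The 2 groups of Ctrl livers on Chow were also compared with each other. In hep Ctrl against whole-body Ctrl, 5 members were called, 2 higher and 3 lower, or 11.1%, near the 10.9% of all genes (5.91% higher and 4.95% lower). Psmc3 (0.43 ± 0.10, adjusted p = 0.0113) and Psmc4 (0.30 ± 0.09, adjusted p = 0.0322) were higher in hep Ctrl, and Psma6 (−0.52 ± 0.10, adjusted p = 0.00456), Psme2 (−0.49 ± 0.12, adjusted p = 0.019) and Psme2b (−1.35 ± 0.43, adjusted p = 0.0496) were lower, by edgeR. Psma6 lay at 64.0, 59.9, 69.3 and 57.3 CPM in hep Ctrl and at 67.7 to 101 with a median of 95.3 in whole-body Ctrl, with 1 hep Ctrl mouse inside that range. Psmc3 lay at 86.1 to 126 with a median of 109.6 in whole-body Ctrl, below all 4 hep Ctrl mice. Psmc4 lay at 97.4 to 109.5 with a median of 101, also below all 4. Leaving out single mice gave 2 to 8 calls, and each call but that of Psma6 was lost in at least 1 alternative fit. Line and cohort cannot be told apart here.

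Diet gave the largest differences among the members. HF-fed against Chow-fed hep Ctrl livers gave 26 of 45 members called, 10 higher and 16 lower, against 53.6% of all 12970 genes (25.3% higher and 28.3% lower). In Maf1hep-/- livers 19 were called, 4 higher and 15 lower, against 46.9% (21.8% and 25.1%). The shares of members called, 57.8% and 42.2%, were near the background. Both comparisons come from separate mice, and in both Psma2, Psma6, Psmd12 and Psmd13 were called higher and 14 members lower: Psma3, Psma4, Psmb2, Psmb3, Psmb5, Psmb6, Psmc1, Psmc4, Psmd3, Psmd8, Psmg1, Psmg3, Psme1 and Psme3.

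Diet was shared by all libraries of a cohort with the sequencing run (150 cycles on 2 lanes for HF), with depth and with the form of the counts, and cannot be told apart from them. Every HF count was a whole number, whereas 69.8% to 74.8% of values per Chow library were, the rest being fractions that arise when reads are split between transcripts or genes. Of the members, 29 had whole values in all 20 Chow libraries. Of those 29, 16 were called in hep Ctrl and 12 in Maf1hep-/- livers, against 49.7% and 42.6% of all such genes. Psma3, Psma4, Psma5, Psmb3, Psmb5, Psmb7, Psmd2 and Psmd11 had fractional values in all 20. Over all genes with fractions in at least 18 Chow libraries, the median log2 fold change was −0.33 in hep Ctrl and −0.29 in Maf1hep-/- livers, against 0.08 and 0.08 for genes with whole values.

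The largest change was in Psma3, one of the genes with fractional values. It lay at 125, 120.0, 119.6 and 105 CPM in hep Ctrl on Chow and at 27.8, 28.5, 28.0, 25.5 and 27.6 on HF (−2.09 ± 0.08, adjusted p = 1.7e-13, edgeR). In Maf1hep-/- livers it went from 113, 96.8, 107 and 111 to 27.6, 24.1, 23.6 and 24.0 (−2.10 ± 0.08, adjusted p = 6.15e-13, edgeR). The 2 diets lay far apart with little spread within each, and no other called member changed by more than 1 on the log2 scale. Psma3 is the gene whose window above holds CCAAT on both strands. CCAAT also occurred for Psma2 and Psma6, called higher on HF in both genotypes, and for Psmb3, Psmc1 and Psme3, called lower in both.

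Psmb5, whose window holds the TGACNNNGC match, was the next lowest. Against the Chow values given above, 40.0 to 54.2 CPM in Ctrl and 34.0 to 44.4 in knockouts, it lay at 14.1 to 27.8 and at 18.7 to 20.9 on HF, without overlap (−0.97 ± 0.15, adjusted p = 4.36e-05, and −0.94 ± 0.16, adjusted p = 0.000161, edgeR). Psmb6, with the same motif, fell by 0.47 and 0.34. The third catalytic gene, Psmb7, has no window here and was not called in either genotype (0.08 and −0.10). Of the 6 members with TGACNNNGC, Psmd12 was called higher on HF in both genotypes and Psme4 higher in Ctrl alone. Psmd9 was called lower on HF in Ctrl alone, and Psmc6 was called in neither genotype. The printed windows were picked from lower genes, and a link between motif and direction was not tested.

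Psmb2, with whole values, lay at 86.4, 82.8, 85.2 and 77.0 CPM in Ctrl on Chow and at 49.6, 56.2, 56.0, 58.0 and 42.4 on HF. In knockouts it went from 82.1, 69.9, 74.8 and 81.8 to 47.2, 42.7, 48.5 and 51.7. No HF-fed liver reached any Chow-fed one, and the log2 fold changes were −0.65 and −0.70. Psma4 lay at 128 to 153 in Ctrl on Chow against 90.9, 92.2, 99.3, 99.996 and 88.4 on HF (−0.58), and at 118 to 139 against 89.1, 84.3, 87.4 and 96.1 in knockouts (−0.49), also apart. The core chaperone Psmg3 went from 4.75, 3.96, 5.61 and 4.51 to 2.43, 3.18, 2.85, 3.56 and 2.41 in Ctrl (−0.70) and by −0.41 in knockouts. Psmg1, which pairs with Psmg2 to start the alpha ring, lay at 16.3, 16.9, 18.5 and 13.5 against 11.4, 13.1, 13.8, 12.5 and 11.2 in Ctrl, with 1 overlap, and at 13.97 to 17.1 against 10.49 to 11.3 in knockouts (−0.39 and −0.51).

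Among the members that rose on HF, Psma6 lay at 57.3 to 69.3 CPM on Chow and at 93.4, 95.8, 101, 91.8 and 86.4 on HF in Ctrl (0.59 ± 0.08, adjusted p = 9.66e-06, edgeR). In knockouts it lay at 60.4, 50.5, 53.2 and 60.6 against 89.6, 83.6, 83.2 and 80.9 (0.59). The lid subunit Psmd13 went from the Chow values above to 58.5, 67.7, 70.5, 66.7 and 48.0 in Ctrl and 51.8, 54.1, 55.8 and 52.6 in knockouts (0.54 and 0.53). Both genes were apart by diet in both genotypes. The lid subunits Psmd12 and Psmd11 rose less. Psmd12 lay at 75.5 to 89.3 against 94.8 to 104 in Ctrl and 75.3 to 82.6 against 86.5 to 93.1 in knockouts (0.28 and 0.21), and Psmd11 at 67.8 to 82.4 against 89.1 to 103 in Ctrl (0.35), with 0.14 and no call in knockouts. Psma2 lay at 56.4 to 69.2 against 67.8 to 87.5 in Ctrl and 54.7 to 64.2 against 65.8 to 73.4 in knockouts (0.28 and 0.26). Psme4 was called in Ctrl at 0.29, with 0.04 in knockouts, and Psme2b at 0.92 ± 0.22 in Ctrl (adjusted p = 0.00183), with 0.52 in knockouts (adjusted p = 0.0676, edgeR).

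**Figure D5:**
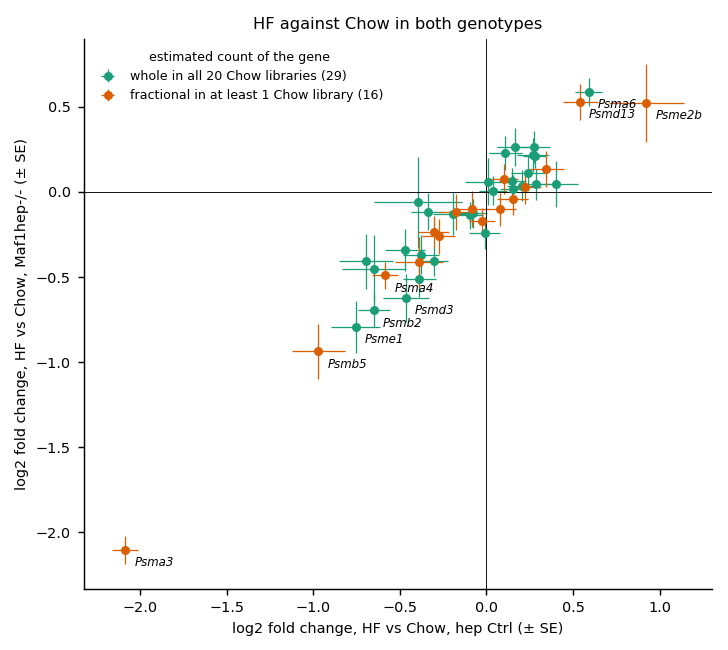
Log2 fold change of HF against Chow in hep Ctrl (horizontal) and in Maf1hep-/- livers (vertical) for the members, with bars of 1 SE, in green for the 29 members with whole values in all Chow libraries and orange for the 16 with fractional values. Psma3 stands alone near −2.09 and −2.10, and most other members lie between −0.97 and 0.59 on both axes.

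The direction of the diet calls depended on scaling. With library totals in place of TMM, 32 members were called in Ctrl, 27 higher and 5 lower, against 70.7% of all genes, and 28 in knockouts, 23 higher and 5 lower, against 64.1%, while the median over all genes moved to 0.41 and 0.35. In a fit of only the 8220 genes with whole values, 14 and 11 members were called, against 47.8% and 40.5% of those genes. An offset for GC content left 22 members called in Ctrl (5 higher and 17 lower), against 49.3% of all genes. In knockouts it left 16 (2 higher and 14 lower), against 42.5%. Members called higher in the main fit had a median GC content of 48.5% in Ctrl and 45.5% in knockouts. Those called lower had 53.6% and 53.5%. For all genes called, the medians were 46.7% and 46.4% (higher) and 53.4% and 53.35% (lower). The part of GC content was not tested.

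The interferon-inducible members did not have the uniformly lower means of the constitutive ones in the hepatocyte knockout, and the difference between the lists was not tested. Psmb10 lay at 16.9, 16.95, 14.5 and 14.2 CPM in hep Ctrl and at 19.0, 17.6, 13.7 and 16.2 in Maf1hep-/- livers on Chow, and at 8.7, 12.8, 9.3, 11.2 and 7.57 against 8.12, 9.62, 16.2 and 14.6 on HF (0.28 ± 0.22). Psme1 lay at 62.4, 66.3, 71.1 and 65.1 against 75.7, 72.0, 65.6 and 60.9 on Chow, and at 42.4, 44.5, 39.7, 41.7 and 27.0 against 38.0, 28.8, 44.6 and 46.6 on HF. Psme2 lay at 31.3, 32.9, 31.2 and 30.0 against 35.6, 32.0, 30.0 and 29.4 on Chow, and at 30.6, 30.8, 32.5, 28.97 and 24.2 against 29.2, 24.4, 32.7 and 31.9 on HF. All of these overlapped. On HF, Psme1 was called lower than on Chow in both genotypes (−0.75 ± 0.14 and −0.79 ± 0.15), Psmb10 in Ctrl alone (−0.65, adjusted p = 0.00746, against −0.45, adjusted p = 0.0687, in knockouts, edgeR), and Psme2 in neither (−0.08 and −0.10).

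Psmb8 and Psmb9, which replace Psmb5 and Psmb6 under interferon and are not members, are given for comparison. Psmb8 lay at 15.1, 12.4, 12.1 and 13.3 CPM in Ctrl and 20.9, 19.3, 15.2 and 14.3 in Maf1hep-/- livers on Chow (0.40 ± 0.14, not called), and Psmb9 differed by 0.33 ± 0.18. On HF the values were 0.18 and −0.05. Interferon response genes, a list of 10, had a higher mean in knockouts for 10 of 10 in both hep cohorts, with 0 called and 2 and 4 at an unadjusted p under 0.05 in edgeR, and summed to 467, 293, 323 and 289 CPM in Ctrl and 517, 686, 357 and 290 in knockouts on Chow. On HF the sums were 281, 240, 309, 328 and 235 against 329, 193, 454 and 350. Macrophage markers were higher for 9 of 10 on Chow (213 to 284 against 225 to 324 CPM in sum) and 7 of 10 on HF (336 to 485 against 304 to 628). The part of either in the values of Psmb10, Psme1 and Psme2 was not tested. In whole-body Maf1-/- livers, Psme1 lay at 48.3 to 77.7 with a median of 55.3 in Ctrl against 59.6, 43.0, 70.4, 69.7 and 76.6 (0.15), and Psme2 at 30.6 to 55.5 with a median of 46.9 against 36.8, 42.3, 33.8, 36.4 and 42.8 (−0.18).

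A list of 31 other genes of the pathway, such as the core chaperone Pomp, the ubiquitin receptor Adrm1, shuttle factors, ubiquitin genes, Vcp with its cofactors, and the factors Nfe2l1 and Nfe2l2, gave no call in edgeR for any genotype comparison with all mice in, with 6, 1 and 6 genes at an unadjusted p under 0.05 in the whole-body, hep Chow and hep HF cohorts. On Chow, 18 of 31 were lower in Maf1hep-/- livers, with a median of −0.03, and on HF 17 of 30, with a median of −0.04. On HF the 6 were these: Ufd1l (−0.32), Nploc4 (−0.31) and Vcp (−0.22), which together form a segregase that extracts ubiquitinated proteins, the deubiquitinase Usp14 (−0.22) and the shuttle factor Ubqln2 (−0.38) were lower, and Shfm1, a small lid subunit, was higher (0.27). Pomp differed by −0.03, Adrm1 by 0.07 and Nfe2l1 by 0.31, none of them called. In whole-body knockouts 17 of 31 were lower (median −0.06), and without both mice 2, 17 of 31 were called, 8 higher and 9 lower, against 47.6% of all genes. For diet, 16 of 31 were called in Ctrl (6 higher and 10 lower) and 16 in knockouts (5 higher and 11 lower), near the 53.6% and 46.9% of all genes.

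In that list the ubiquitin receptor Adrm1 lay at 69.2 to 91.4 CPM on Chow and 7.29 to 15.9 on HF in the hep cohorts, a larger difference than that of any member. In the 12 livers of the whole-body cohort, also on Chow, it lay at 26.7 to 59.4. The cause was not tested, and the run and the form of the counts went with diet here as well.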

How the data were processed

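Per the labels and the methods of the study, the authors trimmed reads with TrimGalore, aligned them with STAR to mm10 and deposited expected counts per gene from RSEM, unscaled. They analysed the 3 cohorts separately with TMM, limma voom and RUVr, whose number of factors is not given in the sources used here. HF counts were all whole, and how they became so is not given either. The Chow libraries hold 43564164 to 75682301 counts and the HF libraries 25544816 to 32319706, and each library is 1 mouse.

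The values were made whole and fitted with edgeR 4.0.16 in R 4.3.3 (quasi-likelihood test, TMM, genes reaching 1 CPM in 1 mouse or more). A member was called at a Benjamini-Hochberg adjusted p under 0.05 over all genes, with no minimum fold. SE is |log2 fold change| divided by the square root of F. Genotype was tested per cohort, and diet and interactions in the hep cohorts (17 mice) and Chow cohorts (20 mice) together. CPM per mouse used TMM over all 29 libraries. GENCODE vM21 (GRCm38) gave lengths, positions and GC content. The members, role groups, pathway list and marker lists were chosen with earlier results of these data known.

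Named with values per mouse were the members called (up to 5 each way per genotype comparison, 6 per diet comparison) or else the 4 smallest p, the 3 smallest p of an interaction, and always Psmb5, Psmb6, Psmb7, Psmb10, Psme1, Psme2, Psmd14 and Psmd4, with the highest and lowest level per length of each role. Alternatives were scaling, filter, DESeq2 1.42.0, limma-voom (limma 3.58.1) with and without RUVr factors, a GC offset, a replicate block and leaving out mice. Same-numbered mice correlated at 0.367, 0.102, 0.231 and 0.246 after removing group means in the HF cohort. All were over the cutoff of 0.1, the lowest only just. The numbers were therefore used as a block there, a choice made from the data and not the labels. The paper describes its data as unpaired, so the pairing is an assumption. The code was tested on simulated counts. A result for 1 gene of the pathway list is not reported here.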

Additional observations from a re-analysis of the deposited data

Results flagged for a closer look

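Values per mouse were examined for a mouse far from the rest of its group, in 180 groups of values (29 genes and the mean of the constitutive subunits, in 6 groups), where the test used sets about 1 group in 20 apart by chance. It set 18 apart, and 10 of them were whole-body Ctrl mouse 2, whose place among the Maf1-/- mice on the first principal component is given above. In that mouse Psma1 (135 CPM, next 109), Psma3 (157), Psma4 (166), Psmc6 (180.1), Psmd5 (64.1) and Psme4 (313) were the highest of the group, and Psmb3 (28.5), Psmd3 (29.4), Psmd4 (66.2) and Psmf1 (15.5) the lowest. In Maf1-/- mouse 2, Psme2b was the highest at 1.98 CPM. The lid subunit Psmd12 was lowest in whole-body Ctrl mouse 1, at 62.2 CPM.

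In the hep cohorts, the alpha subunit Psma1 was lowest in Maf1hep-/- mouse 2 on Chow (81.2 CPM, next 90.2). On HF, Psma3 was lowest in Ctrl mouse 4 (25.5) and highest in Maf1hep-/- mouse 1 (27.6), Psmc6 was lowest in Ctrl mouse 1 (118), and the activator subunit Psme1 was lowest in Ctrl mouse 5 (27.0). The mean log2 CPM of the 31 constitutive subunits was set apart once, in Maf1-/- mouse 5, at 6.63 against 6.43 for the next mouse.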

How the results depend on the processing

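Of the values for 45 named genes and comparisons, none changed sign under any alternative run, and 26 kept their call as well. Of 214 alternative counts of called members, 188 lay within 1.5 times the main count. Many of these were 0 against 0, in comparisons where no member was called, and say little about stability. In the whole-body cohort the count went from 0 to 17 with 1 RUVr factor (33.6% of all genes called), 26 with 3 (47.9%), 27 without both mice 2 (47.6%) and 8 in a fit of all 29 mice (17.4%). On HF, 3 RUVr factors gave 1 call for the genotype. In the diet comparisons, Ctrl and knockout, genes with whole values alone (an alternative chosen after seeing the data) gave 14 and 11, the study's cutoffs (adjusted p under 0.05 and log2 fold change above 1) 1 and 1, and the relaxed cutoffs (0.1 and 0.5) 10 and 9. The whole-body against hepatocyte effect gave 20 without both mice 2. For hep Ctrl against whole-body Ctrl, DESeq2 gave 8, leaving out both mice 2 gave 12, and the study's and relaxed cutoffs 1 and 2. Leaving out 1 mouse at a time gave 0 to 16 for Maf1-/- (16 without Ctrl mouse 2), 0 to 0 for Maf1hep-/- on Chow and on HF, 22 to 29 and 13 to 20 for diet in Ctrl and knockouts, 0 to 0 for the interaction with diet, 0 to 6 between lines and 2 to 8 between Ctrl groups. A fit with the replicate number as a block gave 0 calls for each genotype comparison and the interaction, and 26 and 18 for diet, and changed no other call count by over 1.5 times. Outside the HF cohort same-numbered mice did not all correlate above 0.1 (r from −0.566 to 0.327 in the whole-body cohort and −0.336 to 0.246 in the hep Chow cohort). No block was fitted for comparisons between lines. The causes of these shifts were not tested beyond the values given.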
